A study of Saccharomyces cerevisiae with 2 samples.

Results

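Domain V of the 25S rRNA was examined at nucleotides 2381 to 2995, which hold the peptidyl transferase center of the large ribosomal subunit. The members were chosen by position alone: these 615 nucleotides, out of 6858 in the 35S pre-rRNA, positions 5632 to 6246 of the precursor, were taken whatever their signal. The region itself and the lists of sites were chosen with earlier results of these data known. In the R64 genome they lie within RDN37-1 on the minus strand at chrXII:452187-452801. The ribosomal DNA is a repeat, so each value is a sum over its copies.

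The data came from CRAC, in which RNA is crosslinked to a protein by UV light in living cells, purified with that protein under denaturing conditions, trimmed with RNases, reverse transcribed and sequenced. The Rbp95-HTP strain had the genomic copy of RBP95 (YCR016W), an RNA-binding factor of early pre-60S particles, marked with URA3MX and fused to a C-terminal tag of 6 histidines, a TEV protease site and protein A, in the BY4741 background. The BY4741 control carried no tag. Both strains were grown without tryptophan, in minimal medium with glucose, to an OD of 0.6, crosslinked for 100 s in a Megatron instrument, taken through both purification steps, and amplified with 16 PCR cycles. Each strain gave 1 library, so differences between the libraries could not be set against replicates and no p-value was computed. The 95% Wilson intervals below cover counting error only, with hits or reads taken as independent.

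Domain V is the part of the large-subunit rRNA that forms the catalytic site. Its P loop and A loop base-pair with the CCA ends of the P-site and A-site tRNAs, and a ring of single-stranded nucleotides surrounds the adenosine at the heart of the center. During assembly in the nucleolus, box H/ACA snoRNAs base-pair with the precursor to guide pseudouridylation, and box C/D snoRNAs guide methylation of the ribose. snR10, snR37 and snR42 are H/ACA guides for pseudouridines in the 3′ part of the domain.

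The label of the region was checked against its sequence. The 6 motifs searched were CTGGGGCGG for the P loop, GATAACTGG for the catalytic adenosine, ATGTCGG and GGGTTTAG for the uridines of the ring, ATTGTTC for the A loop and GAGACAGG for the flexible adenosine at the 3′ side. Each was found 1 time in the 35S pre-rRNA and inside the region, which placed G2619 in the P loop, A2820 as the catalytic adenosine, U2875 and U2954 in the ring, G2922 in the A loop and A2971 as the flexible adenosine. On the opposite strand the A loop motif occurred 2 times and each of the other motifs 0 times. The base was the one required at all 25 positions listed for modified nucleotides.

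The sequences that carry the signal are given 5′ to 3′ with T for U, as in the pileups. In the first, capitals mark the 39 nucleotides where the untagged control was high, and the lower-case letters after them are covered mainly with Rbp95-HTP. In the next 3, capitals mark modified and center nucleotides. In the last 3, the capital is the catalytic adenosine, the P loop guanosine and the most often substituted nucleotide.
25S 2515 to 2599 (chrXII:452583-452667): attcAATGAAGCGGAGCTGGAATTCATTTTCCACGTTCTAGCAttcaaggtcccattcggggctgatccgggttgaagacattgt
25S 2936 to 2970, with the site guided by snR37 (chrXII:452212-452246): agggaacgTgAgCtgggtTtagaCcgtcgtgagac
25S 2901 to 2925, up to the A loop (chrXII:452257-452281): gaattcggtaagcgttggatTGTtc
25S 2853 to 2880, high in the control (chrXII:452302-452329): attgctttttgaTtcttCgatgTcggcT
25S 2808 to 2832 (chrXII:452350-452374): accacagggataActggcttgtggc
25S 2601 to 2628 (chrXII:452554-452581): aggtggggagtttggctgGggcggcaca
25S 2758 to 2797 (chrXII:452385-452424): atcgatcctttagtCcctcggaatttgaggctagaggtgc

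With Rbp95-HTP, 420 of the 615 nucleotides (68.3%) had at least 1 hit, a hit being 1 read that covers a nucleotide, against 149 (24.2%) in the control. Of these, 137 were covered in both libraries, which is 32.6% of the nucleotides covered with Rbp95-HTP and 91.9% of those covered in the control. In the rest of the 25S rRNA the covered shares were alike, at 66.7% with Rbp95-HTP, against 23.6% in the control. The first 75 nucleotides, 2381 to 2455, had 0 hits in both libraries, as had 2478 to 2514, 2629 to 2641, 2679 to 2726 and 2926 to 2935.

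The summed hits ran the other way. Domain V held 389003 hits, 13.3% of the 35S total, with Rbp95-HTP and 783619 hits, 19.5%, in the control. The reads of the region, counted as upward steps of the pileup and therefore at least as many as given, numbered 11901 with Rbp95-HTP and 22819 in BY4741 cells. Hits divided by these reads gave 32.7 nucleotides for Rbp95-HTP and 34.3 for the control. The share of domain V was thus 0.684 of the control's. This ratio depended on what lay outside the region: a peak that begins at nucleotide 3011, 16 nucleotides past the 3′ border, took up 66.9% of the Rbp95-HTP hits on the precursor, and with that peak left out of both totals domain V made up 40.2% of hits with Rbp95-HTP, against 19.5% in the control, a ratio of 2.06. Both pileups were limited to 100000 reads by the authors, so the heights do not show how deeply each library was sequenced.

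**Figure D1:**
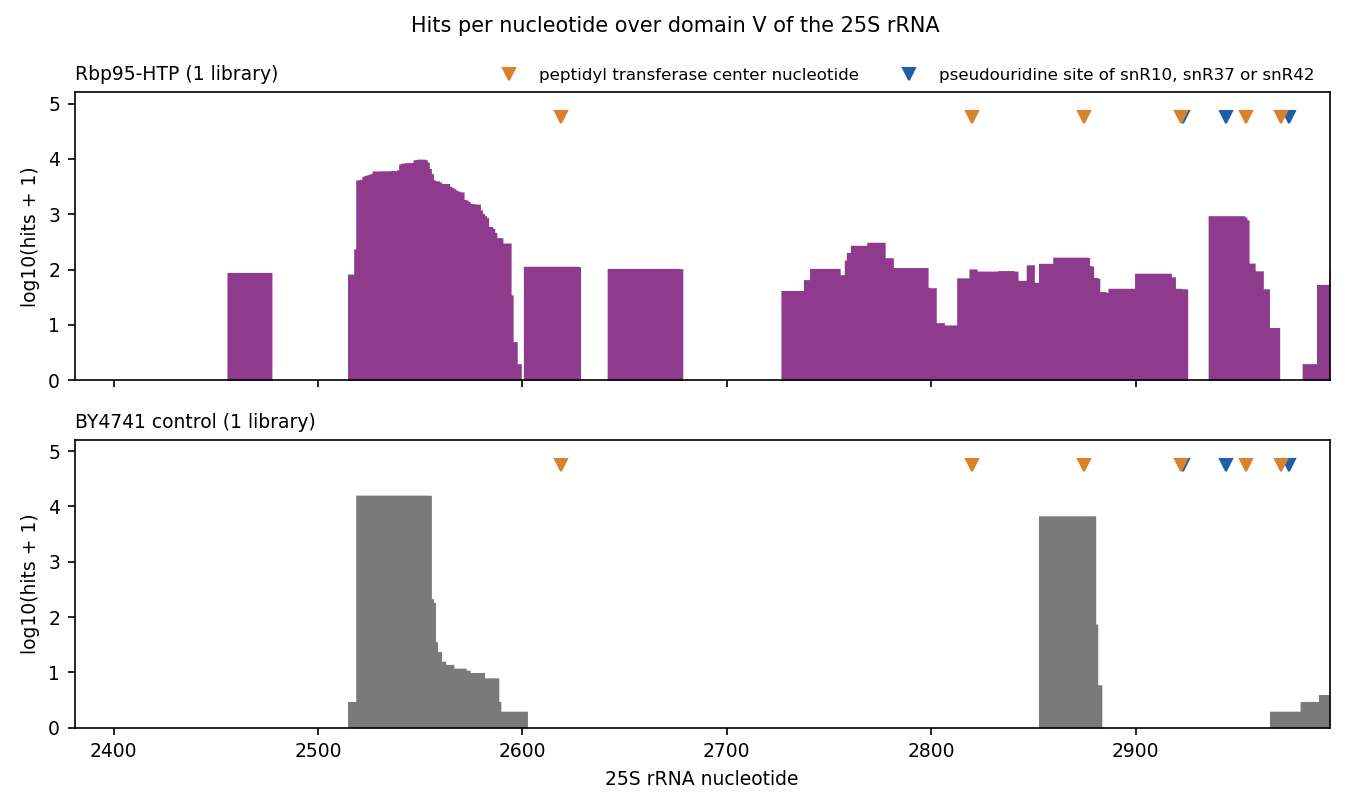
Hits at each nucleotide of 25S domain V (x axis, 25S nucleotide) on a log10(hits + 1) axis, for the single Rbp95-HTP library above and the single BY4741 control library below. Triangles mark center nucleotides and the sites of snR10, snR37 and snR42. With Rbp95-HTP 420 nucleotides were covered in 7 runs, and in the control almost all hits lay in 2 stacks.

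The Rbp95-HTP hits formed 7 covered runs, 2456 to 2477, 2515 to 2599, 2601 to 2628, 2642 to 2678, 2727 to 2925, 2936 to 2970 and 2982 to 2995. The run at 2515 to 2599 alone held 87.1% of the Rbp95-HTP hits of the region, and the same nucleotides held 75.8% of the control's. At a minimum of 100 hits, 10 stretches remained with Rbp95-HTP, against 2 in the control, at 2519 to 2557 and 2853 to 2880. With the run at 2515 to 2599 taken out of both the domain and the 35S total, the rest of domain V made up 1.94% of the remaining hits with Rbp95-HTP, against 5.53% in the control.

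Nucleotides were also compared by their share of all 35S hits, where at least 1 library had 20 hits or more. Of 394 such nucleotides in domain V, 328 (83.2%) had an at least 2-fold higher share with Rbp95-HTP, and at 273 of those the control had 0 hits. The same held for 93.0% of 3724 such nucleotides over the whole 35S pre-rRNA and for 93.7% of 1756 in the rest of the 25S rRNA, so the share in domain V was below the background. An at least 2-fold lower share was found at 36 nucleotides (9.14%), all of them in 2519 to 2526 and 2853 to 2880, inside the stacks of the control, beside 6.20% over the whole 35S pre-rRNA and 6.32% in the rest of the 25S rRNA. With the peak at 3011 to 3047 left out of the totals, 344 were higher (87.3%, beside 93.4% over the whole 35S pre-rRNA), again below the background. Then 28 were lower (7.11%, beside 5.99% over the whole 35S pre-rRNA), and none of the lower ones lay in 2519 to 2557.

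The highest point of the domain lay in the first of these stacks, with 9910 hits at nucleotide 2549 with Rbp95-HTP, against 16041 in the control. Across 2519 to 2557 the hits with Rbp95-HTP were 4154 at the lowest, 6155 at the median and 9910 at the highest, against 184, 16033 and 16042 in the control. The control pileup was flat up to its drop at 2556 and 2557, whereas the Rbp95-HTP pileup climbed in steps. Only 2 of these 39 nucleotides, 2556 and 2557, had a higher share of 35S hits with Rbp95-HTP, and the median ratio of shares was 0.529. This direction turned with the peak at 3011 to 3047 left out of the totals. All 39 then had a higher share with Rbp95-HTP, and the ratios ran from 1.08 at the lowest, with a median of 1.60.

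The next 37 nucleotides, 2558 to 2594, were bounded by the hits themselves, as those where the control was below 100 hits and Rbp95-HTP still had at least 100, so their direction is a description of that choice. Rbp95-HTP had 301 hits at the lowest, 1567 at the median and 4025 at the highest of them, and the control had 1, 9 and 35. Summed, this was 67481 hits with Rbp95-HTP, 17.3% of its hits in the domain, and 368 hits in the control, 0.0470% of its own. The ratio of the shares of 35S hits was 252 for the sums and between 74.4 and 380 for the single nucleotides. The size of these ratios also depends on that choice, so they describe the stretch and test nothing.

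Read starts are given as the upward steps of the pileup, net of ends on the neighbouring nucleotide. With Rbp95-HTP, 3918 reads (32.9% of the domain's, interval 32.1 to 33.8%) began at nucleotide 2519, followed by 1762 (14.8%) at 2540, 978 (8.22%) at 2547, 941 (7.91%) at 2936 and 624 (5.24%) at 2527. In the control, 16023 reads (70.2%, interval 69.6 to 70.8%) began at 2519 and 6774 (29.7%) at 2853, and the starts at 2540 and 2547 had 4 reads each. The most used start was therefore the same nucleotide in both libraries, while the next most used starts with Rbp95-HTP were almost unused in the control.

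Of the starts with at least 20 reads, 42 positions were found with Rbp95-HTP and 2 in BY4741 cells. The 20 most used positions held 90% of the Rbp95-HTP reads, and 2 positions did so in the control. Ends were spread further. With Rbp95-HTP, 2068 reads (17.5%) ended at 2554, 1298 (11.0%) at 2555, 1228 (10.4%) at 2556, 915 (7.75%) at 2553 and 683 (5.79%) at 2571, and 267 ended at 2594. In the control 15697 reads (68.8%) ended at 2555 and 6669 (29.2%) at 2880. The control's signal in domain V was therefore made almost wholly of 2 stacks with fixed borders, whereas 32.9% of the Rbp95-HTP reads began at the start of the first of them. The steps of a pileup do not link a start to an end, so the number of different Rbp95-HTP fragments is not known.

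**Figure D2:**
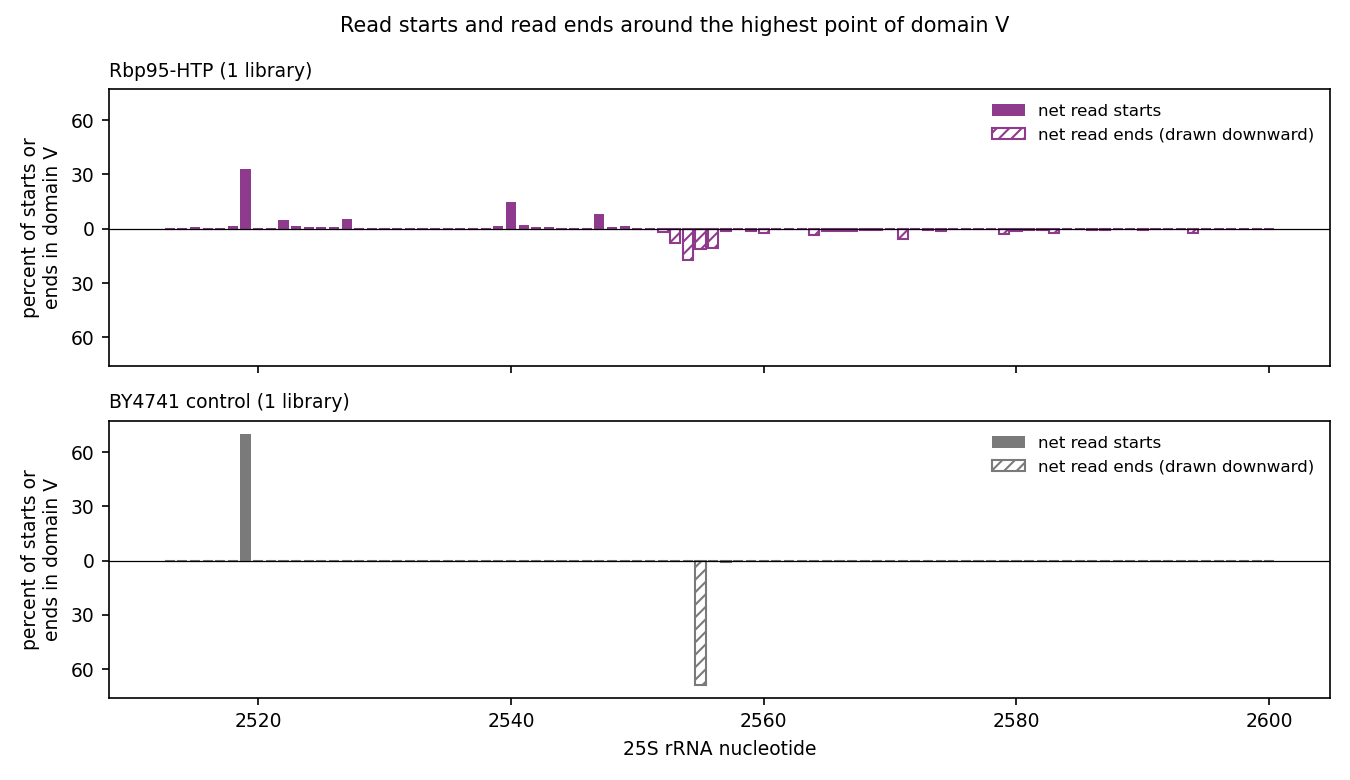
Net read starts (filled bars, upward) and net read ends (hatched bars, downward) as a percent of all starts or ends in domain V, along nucleotides around 2515 to 2599, for the single Rbp95-HTP library above and the single BY4741 control library below. The control has 1 tall start at 2519 and 1 tall end at 2555, and with Rbp95-HTP further starts stand at 2540 and 2547 and ends run on to 2594.

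RNase A cuts after pyrimidines and RNase T1 after guanosines, so the base before each start was read from the pileup's sequence. With Rbp95-HTP, 88.9% of the reads in the domain began after a pyrimidine (67.3% after C and 21.6% after U), 7.92% after A and 3.18% after G. Counting each of the 50 start positions once gave 68.0% pyrimidines and 22.0% A, beside 46.5% pyrimidines and 26.5% A in the sequence of the domain. In the rest of the 25S rRNA the pyrimidine share with Rbp95-HTP was higher, at 94.3% by reads and 82.4% by positions, with 10.7% A by positions. In the control, 71.4% of the 14 start positions in the domain followed a pyrimidine. The C share by reads rests on a few positions, since nucleotide 2519 alone held 32.9% of starts. The last base of the Rbp95-HTP reads was close to even, at 24.5% A, 25.1% C, 23.8% G and 26.6% U. These shares also rest on a few positions, since U2553, A2554, G2555 and C2556 held 7.75%, 17.5%, 11.0% and 10.4% of ends. Counting each of the 77 end positions once gave 19.5% A, 27.3% C, 22.1% G and 31.2% U.

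The stretch at 2936 to 2970 had the second highest point of the domain with Rbp95-HTP. All 941 reads began at A2936, and 662 of them (70.4%) ended at nucleotide 2955, with smaller numbers ending at 2953 (55), 2954 (94), 2958 (36), 2962 (50), 2965 (36) and 2970 (8). The control had 0 hits at 2936, and counting it at 3 hits the share of 35S hits was 432-fold higher with Rbp95-HTP. Control reads on the precursor began at only 61 positions, against 306 with Rbp95-HTP. A control value of 0 is therefore thinly sampled, and this and the like ratios below are not lower bounds. These fragments contain U2944, the uridine that snR37 guides to pseudouridine, with 941 hits with Rbp95-HTP, against 0 in the control. The same stretch covers A2946 and C2948, ribose methylation sites of snR71 and snR69, each with 941 hits with Rbp95-HTP and 0 in BY4741 cells. It runs on through U2954 of the ring, with 886 hits with Rbp95-HTP, against 0 in the control, and past C2959, the site of snR73, with 94 hits against 0. Substitutions were rare in it, with 2 among the 941 hits at U2944.

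The sites of snR10 and snR42 lay at or beyond the edges of coverage. U2923 in the A loop, the site of snR10, had 44 hits with Rbp95-HTP and 0 in BY4741 cells, 20.2-fold higher with the control counted at 3 hits. The covered run that reaches it ended at C2925, and 10 uncovered nucleotides separate it from the start at 2936. U2975, the site of snR42, had 0 hits with Rbp95-HTP, against 1 in the control, and the nearest nucleotide covered with Rbp95-HTP was 5 nucleotides away. So 2 of these 3 H/ACA sites were covered with Rbp95-HTP, U2944 far more deeply than U2923. That is near the covered share of all nucleotides of the domain, 68.3%, and 6 of its 8 pseudouridines were covered.

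**Figure D3:**
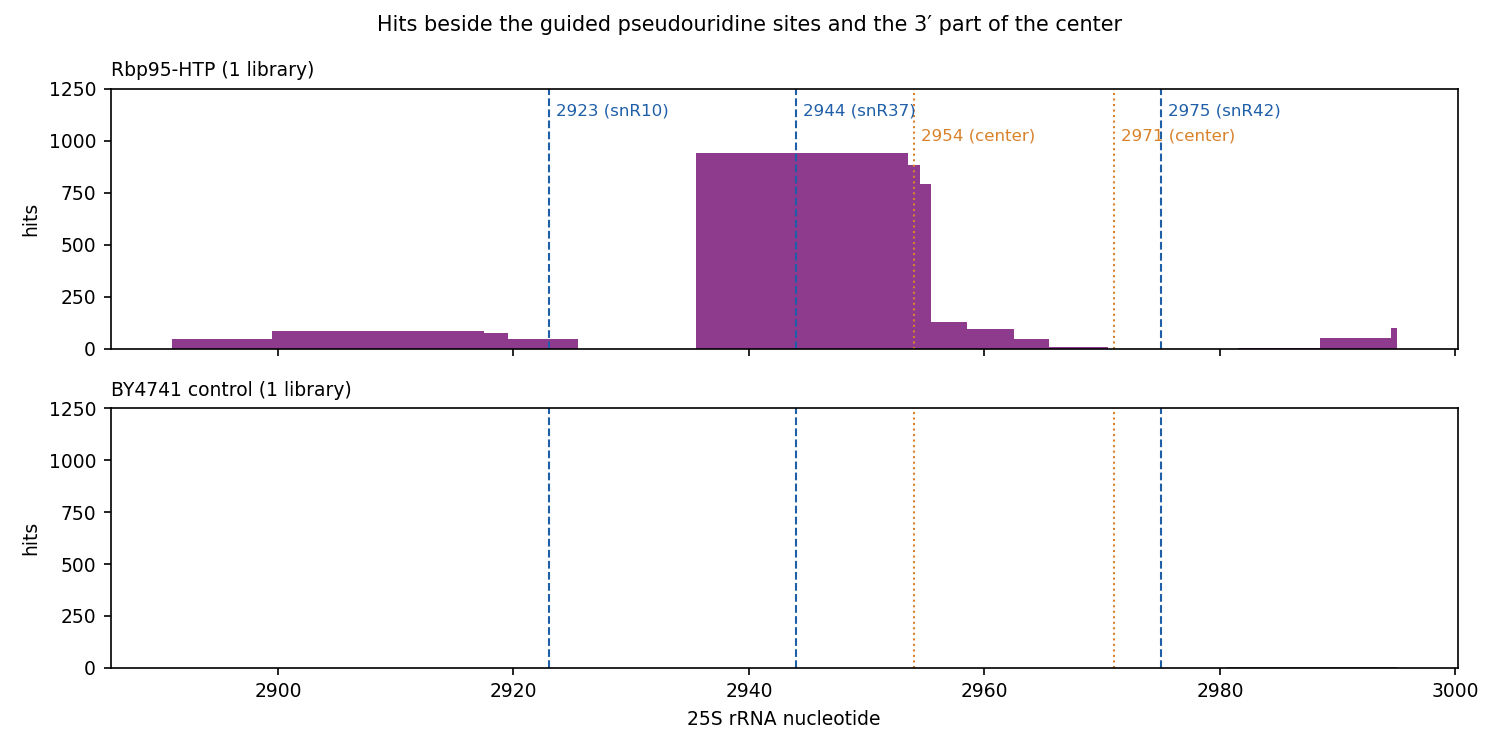
Hits (linear axis) at 25S nucleotides around the sites of snR10 (2923), snR37 (2944) and snR42 (2975), dashed, and the center nucleotides 2954 and 2971, dotted, for the single Rbp95-HTP library above and the single BY4741 control library below. With Rbp95-HTP 941 hits cover site 2944, 44 cover site 2923 and 0 cover site 2975, and the control has 1 to 3 hits at the 3′ end, too few to see on this axis.

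The deposited snoRNA lists give reads per 100000 for the guides themselves. snR37 stood at 674 with Rbp95-HTP and at 1 in the control, snR10 at 122 with Rbp95-HTP and snR42 at 84, neither of them listed in the control. The order of these 3 guides was the order of hits at their sites, but not all guides kept to it. The sites of snR71, not listed with Rbp95-HTP, and of snR69, at 9, had the same 941 hits as that of snR37. Over all 18 snoRNAs that guide a modification in the domain, 12 were listed with Rbp95-HTP and 1 in BY4741 cells. The paper reports many other snoRNAs crosslinked to Rbp95. The listed share of all snoRNAs is not given here, so these counts do not set the guides of domain V apart. A covered target site was found for 8 of the 12 listed guides and for 5 of the 6 unlisted ones, so covered sites were no more frequent among the listed guides.

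The peptidyl transferase center was covered unevenly. The P loop guanosine G2619 had 114 hits with Rbp95-HTP, against 0 in the control, 52.3-fold higher with the control counted at 3 hits. All came from a fragment that begins at 2601 with 114 reads and ends at 2628 with 112. The catalytic A2820 had 102 hits with Rbp95-HTP and 0 in BY4741 cells, 46.8-fold higher on the same count. A2971, a flexible base beside the active site, had 0 hits with Rbp95-HTP, against 1 in the control. G2922 in the A loop had 45 hits with Rbp95-HTP and 0 in BY4741 cells. With Rbp95-HTP, 5 of the 6 center nucleotides had at least 1 hit and 4 had at least 100 hits, against 2 and 1 of them in the control. Over all nucleotides of the domain these shares were 68.3% and 41.8% with Rbp95-HTP, and 24.2% and 10.9% in the control. With 6 nucleotides the counts cannot set the center apart from the domain.

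U2875 of the ring had a far lower share with Rbp95-HTP, with 167 hits, against 6774 in the control, a ratio of shares of 0.0339. It lies in the second stack of the control, 2853 to 2880, which held between 6743 and 6774 hits at every nucleotide and also contains Ψ2865, the methylated cytosine C2870 and Ψ2880. With Rbp95-HTP 71 reads began at 2853 and 38 at 2860, in addition to reads that ran in from the start at 2847, and net ends lay at 2877 (49), 2879 (44) and 2882 (30), with no net end at 2880, the end of the control fragment.

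Among all 25 modified nucleotides of the domain, 18 were covered with Rbp95-HTP and 4 in BY4741 cells, and 8 had at least 100 hits with Rbp95-HTP against 3 in the control. As shares these were 72.0% covered and 32.0% at 100 hits with Rbp95-HTP, beside 68.3% and 41.8% of all nucleotides of the domain, and 16.0% covered in the control, beside 24.2%. The counts are therefore close to, or below, those of the domain as a whole. The 8 pseudouridines had 6 covered with Rbp95-HTP, against 3 in the control. Of the 14 ribose methylations, 10 were covered with Rbp95-HTP and 0 in BY4741 cells. The 3 base methylations had 2 covered with Rbp95-HTP, against 1 in the control. The modified sites left uncovered with Rbp95-HTP lay in 2416 to 2421, 2634 to 2640 and at 2724 and 2975. The methylated uridine U2843 had 63 hits and 0 altered ones with Rbp95-HTP, which, at 3 hits of the total, allows an altered share of up to 4.76%.

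The long run from 2727 to 2925 was low, between 9 and 311 hits with Rbp95-HTP, and was built from many short fragments. Its highest part, 2758 to 2798, had starts at 2758 (68 reads), 2759 (55), 2761 (70) and 2769 (37), on top of reads that had begun further 5′, and ends at 2777 (148), 2781 (55) and 2798 (61). At nucleotide 2769 it reached 311 hits with Rbp95-HTP and 0 in BY4741 cells, 143-fold higher with the control counted at 3 hits. The single fragments 2642 to 2678, with 104 reads starting at 2642, and 2456 to 2477, with 88 reads, had 0 hits in the control. At the 3′ border, nucleotide 2995 had 100 hits with Rbp95-HTP, against 3 in the control, and this run went on into domain VI. In 4 of the 7 Rbp95-HTP runs, every read began at 1 nucleotide.

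Crosslinked nucleotides can be misread or skipped by the reverse transcriptase, so substitutions and deletions were counted as altered hits. With Rbp95-HTP 1420 of 389003 hits in the domain were altered (0.365%, interval 0.347 to 0.384%), and in the control 1737 of 783619 (0.222%, interval 0.211 to 0.232%). Each read gives many hits, so these intervals and those that follow may be too narrow. Deletions made up 12 of the altered hits in each library. In the rest of the 25S rRNA the altered share was 1.04% with Rbp95-HTP and 0.295% in BY4741 cells. Most of those altered Rbp95-HTP hits lay in the peak at 3011 to 3047, and without it the share was 0.544% with Rbp95-HTP (0.520 to 0.569%) and 0.295% in BY4741 cells. Over the shared nucleotides 2519 to 2557 it was 0.359% with Rbp95-HTP (0.337 to 0.382%) and 0.291% in the control (0.277 to 0.305%).

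Of 257 nucleotides with at least 100 hits with Rbp95-HTP, 128 had no altered hit and the median was 0.0521%. Only C2772 passed 5%, with 65 of 311 hits substituted (20.9%, interval 16.8 to 25.8%), and the control had 0 hits there. That is 0.389% of the nucleotides at this depth, against 15 of 1167 (1.29%) in the rest of the 25S rRNA. C2772 lies 3 nucleotides past the start at 2769 and 5 before the end at 2777, in the highest part of the long run. Its hits rest on few starts (68 reads at 2758, 55 at 2759, 70 at 2761 and 37 at 2769, beside reads begun further 5′). Whether PCR duplicates were collapsed is not given. The interval takes hits as independent and may be too narrow. The next was U2858 with 3 of 129 hits (2.33%, interval 0.794 to 6.61%). U2795, G2878 and G2856, with 2 altered hits each, stood between it and the sixth, U2521, which had far greater depth, with 66 of 4273 with Rbp95-HTP (1.54%, interval 1.22 to 1.96%) and 32 of 16028 in the control.

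In the control the most altered nucleotide was C2556, with 43 of 5400 hits altered with Rbp95-HTP and 25 of 215 (11.6%, interval 8.0 to 16.6%) in the control, and it lies 1 nucleotide past the end of the main control fragment. The second stack of the control, 2853 to 2880, had 24 altered hits of 4211 with Rbp95-HTP (0.570%, interval 0.383 to 0.847%) and 0 of 189641 in the control, where the upper Wilson limit is 0.00203%. Those control hits came from 6774 reads that all began at 2853, and whether these are copies of few molecules is not known. The limit takes hits as independent and may be far too low.

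**Figure D4:**
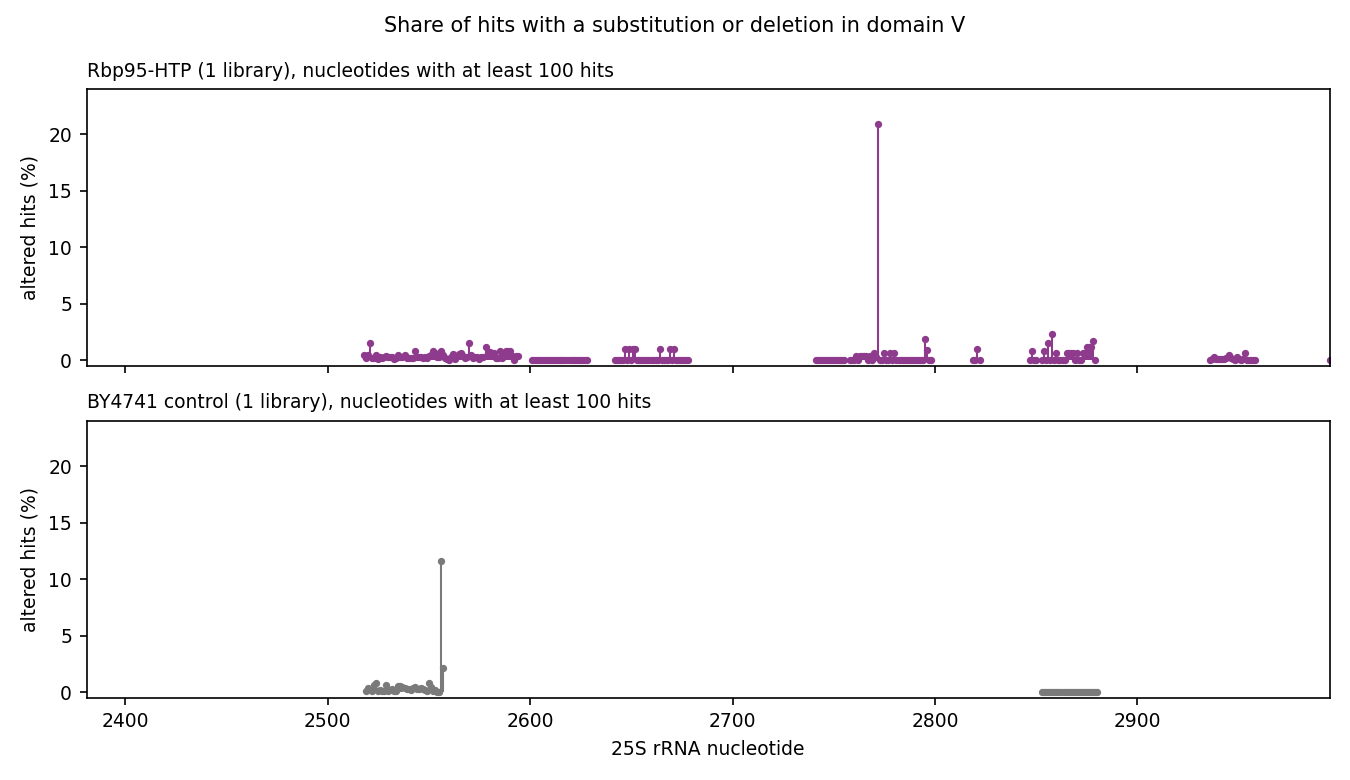
Percent of hits with a substitution or deletion at each nucleotide of domain V that had at least 100 hits, by 25S nucleotide, for the single Rbp95-HTP library above and the single BY4741 control library below. C2772 stands at 20.9% with Rbp95-HTP, C2556 at 11.6% in the control, and all control nucleotides from 2853 to 2880 lie at 0.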

How the data were processed

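The authors removed barcodes, adapters and poor reads with Flexbar, aligned with Novoalign to the yeast genome (build R64 in the submitters' processing notes) and made the pileups with pyCRAC. Versions are not given in the sources used here, nor is whether PCR duplicates were collapsed. The deposited 35S pileups hold counts of hits, substitutions and deletions per nucleotide, limited by the authors to 100000 reads. Stretches were taken at 100 hits, folds as ratios of shares of all 35S hits with the control at no less than 3 hits, and read starts and ends from the steps between nucleotides, which cancel where a read ends beside the start of another. The 35S total was at least 97296 reads with Rbp95-HTP and at least 99994 in BY4741. In the deposited snoRNA lists the value is a score, reads per 100000, used as given. RNA class tables were not used. Named nucleotides are the peaks, the most used starts and ends, the most altered nucleotides with at least 100 hits, the center nucleotides and the guided sites. The sites, guides and motifs were written from general knowledge and checked against the sequence. The region and the lists were chosen with earlier results of these data known. Groups follow the sample titles. The series text names Nap1_HTP in place of Rbp95, and the labels and the study's methods differ on the sequencer and on the control strain (BY4741 or BY4742). Step counting was tested on simulated pileups of separate stacks, each with a single start and end, over a low background. Many overlapping starts and ends, as with Rbp95-HTP at 2515 to 2599, were not simulated. Python 3.11.15, numpy 2.4.6 and matplotlib 3.10.9 were used.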

Additional observations from a re-analysis of the deposited data

How the results depend on the processing

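With 1 library in each condition, no replicate could be left out. No paired analysis was possible because each group holds 1 library. The share of domain V in all hits (13.3% with Rbp95-HTP, 19.5% in the control) became 14.5% and 26.9% over the 25S rRNA alone and 12.2% and 22.8% by read starts. Without the peak at 3011 to 3047 it was 40.2% with Rbp95-HTP. In an alternative chosen after seeing the data, 2515 to 2599 was taken out of the domain and of the total, which gave 1.94% and 5.53%. A window wider or narrower by 50 nucleotides at each border gave 13.9% and 12.9% with Rbp95-HTP. The ratio of 0.684 was 0.538 over the 25S rRNA, 0.536 by read starts and 0.496 on the hits as deposited, and turned to 2.06 without the peak. Covered nucleotides numbered 257 with Rbp95-HTP and 67 in the control at 100 hits, and 85 in the control at 10 hits. Stretches with Rbp95-HTP fell to 3 at 200 hits. The main start held 35.2% of Rbp95-HTP reads when starts within 2 nucleotides were joined. The altered share of the control was 0.209% without its most altered nucleotide, 2 nucleotides passed 2% altered with Rbp95-HTP, and A preceded 22.0% of start positions counted once. Where 100 hits were required, 193 nucleotides were at least 2-fold higher. The background over the 35S pre-rRNA at that limit is not given here, so this count cannot be set against it. The remaining 21 alternatives moved their values by less than the spread or factor that counts as a change. The Wilson intervals cover counting error only, with hits or reads taken as independent, and the cap on reads hides the depth of the libraries.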

Other observations

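The control pileup held 6 stacks of at least 100 hits on the 35S pre-rRNA, 2 of them in domain V. In 5 of the 6 the altered share lay between 0.215% and 0.401%, and in the stack at 25S 2853 to 2880 it was 0 of 189641 hits.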
